A study of Mus musculus with 20 samples.

Results

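Thermogenic and brown fat genes were followed in RNA of the mouse thoracic aorta after proton or gamma radiation. The 8 genes were Ucp1, Cidea, Elovl3, Dio2, Ppargc1a, Prdm16, Cpt1b and Ppara, taken by gene symbol from the table of sense-strand read counts, which holds 21078 genes. All 8 were found once in that table and all passed the filter of a mean count of at least 5, as did 13124 genes in all. The study exposed wild-type male C57BL/6 mice of 10 to 12 weeks, awake and restrained, to a total-body dose of 0, 5, 10, 25, 50, 75, 100, 125, 150 or 200 cGy of protons or of gamma rays, and took tissue 4 h later. A proton mouse and a gamma mouse stood for each dose, 20 mice in all, and the mice at 0 cGy were sham-irradiated in the irradiator of their type. A dose was therefore not replicated within a type, and p-values rest on the spread of the mice around a dose line. Below, Proton75 is the mouse that received 75 cGy of protons and Gamma100 the mouse that received 100 cGy of gamma rays.

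The thoracic aorta of the mouse is wrapped in perivascular fat with the features of brown fat, and RNA of a whole aorta can carry its transcripts. Brown adipocytes make heat: noradrenaline raises cAMP through beta-adrenergic receptors, lipolysis frees fatty acids, mitochondria oxidise them, and the uncoupling protein UCP1 lets protons re-enter the mitochondrial matrix without making ATP. The 8 genes cover the effector (Ucp1), lipid handling (Cidea, Elovl3, Cpt1b), local activation of thyroid hormone (Dio2) and transcriptional control (Ppargc1a, Prdm16, Ppara). In bulk RNA, fewer cells of a type and less RNA per cell cannot be told apart. The sources used here do not state how much fat was left on each aorta.

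Libraries had been resampled by the authors to one depth, and total counts ran from 6051657 to 6058006 per mouse, so counts are compared between mice directly. A count of 3, the floor used here, is 4.95e-05% of a library, and intervals of single counts are exact 95% Poisson intervals that cover counting error only. Markers of the labelled tissue were present in every mouse: 10 smooth muscle markers summed to between 176481 and 353042 counts. The lowest of these sums was in Proton75 and the second lowest, 260315, in Gamma100, against 293393 to 353042 in the other 18 mice. In the 4 mice at 150 and 200 cGy the counts deviated from the mean with the GC content of the gene (correlation across 9702 genes between -0.405 and -0.354), against -0.0182 to 0.289 in the 16 other mice.

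The stretches before the annotated start of 4 genes are shown because the counts of Ucp1, Ppargc1a and Ppara moved together in some mice while those of Dio2 did not. Each is the 250 bases before the start in RefSeq on build GRCm38.p6, read along the gene, at chr8:83290098-83290347 (plus strand) for Ucp1, chr12:90739039-90739288 (minus strand) for Dio2, chr5:51567726-51567975 (minus strand) for Ppargc1a and chr15:85735526-85735775 (plus strand) for Ppara. Capitals mark exact matches, on either strand, to TGACG (core letters of the cAMP response element), AGGTCA (core letters of nuclear receptor sites) and TATAAA (letters of a TATA box).
Ucp1: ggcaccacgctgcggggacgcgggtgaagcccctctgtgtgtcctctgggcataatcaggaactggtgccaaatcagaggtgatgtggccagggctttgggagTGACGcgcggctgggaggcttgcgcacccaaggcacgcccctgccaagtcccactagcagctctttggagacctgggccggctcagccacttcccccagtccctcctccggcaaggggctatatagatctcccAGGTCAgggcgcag
Dio2: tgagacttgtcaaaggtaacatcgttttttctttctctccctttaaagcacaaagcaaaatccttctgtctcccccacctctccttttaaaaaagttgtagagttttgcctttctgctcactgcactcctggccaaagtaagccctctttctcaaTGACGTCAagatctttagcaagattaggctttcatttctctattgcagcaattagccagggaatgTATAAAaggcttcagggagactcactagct
Ppargc1a: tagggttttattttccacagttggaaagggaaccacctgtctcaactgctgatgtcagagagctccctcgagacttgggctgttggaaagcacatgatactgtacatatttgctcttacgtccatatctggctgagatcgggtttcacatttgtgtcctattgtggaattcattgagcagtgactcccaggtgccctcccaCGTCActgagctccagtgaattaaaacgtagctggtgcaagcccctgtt
Ppara: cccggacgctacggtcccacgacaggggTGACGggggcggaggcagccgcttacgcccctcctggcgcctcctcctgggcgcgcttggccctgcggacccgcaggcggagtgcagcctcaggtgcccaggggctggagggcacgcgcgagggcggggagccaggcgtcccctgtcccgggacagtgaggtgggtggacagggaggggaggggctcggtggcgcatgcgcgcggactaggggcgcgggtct

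TGACG stood in 4 of the 5 stretches that the table held for the 8 genes, those shown, but not in that of Prdm16, and in 17.8% of the 32851 stretches of the same length in the table. In Dio2 it was matched on both strands by overlapping letters. AGGTCA was found in Ucp1 only among the 4 (14% of all stretches), and TATAAA in Dio2 only (12.4% of all). CACGTG (6.02% of all) was in none of them, and CCAAT (33.8% of all) was found in Prdm16 only. Such matches describe letters and do not show binding.

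The range over the 20 mice set the 8 genes apart in 2 ways: 5 of them varied more between mice than nearly all other genes, and Dio2 and Prdm16 did not. Ucp1 (mm9 chr8:85814247-85822355, plus strand), the uncoupling protein itself, had counts from 130 in the gamma mouse at 50 cGy to 7108 in Proton75, a 54.7-fold range around a median of 382.5. Its standard deviation was 1.60 on the log2(count + 1) scale, larger than that of 99.7% of the genes tested, whose median was 0.24. Ucp1 was thus among the most variable genes of these aortas, and it stayed so without the 2 mice, at 130 to 2150 counts with a standard deviation of 1.27.

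Cidea (mm9 chr18:67503218-67527448, plus strand), a lipid droplet protein of brown fat, ranged from 267 in the gamma mouse at 50 cGy to 4527 in Proton75 around a median of 414. Without the 2 mice its highest count was 1004, in the proton mouse at 0 cGy, which left a 3.76-fold range. Elovl3 (mm9 chr19:46206387-46210184, plus strand), an elongase of very long chain fatty acids, was low, from 1 count in 4 mice to 38 (interval 26.9 to 52.2) in Proton75, around a median of 6. Counting error is wide at this depth: 12 counts had an interval of 6.20 to 21.0, and 1 count one of 0.0253 to 5.57.

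Cpt1b (mm9 chr15:89246836-89256294, minus strand), the muscle and brown fat form of the enzyme that passes fatty acids into mitochondria, ranged from 5 in the proton mouse at 5 cGy to 347 in Proton75 around a median of 20.5. Its exons share 2744 of 3372 bases with those of Chkb on the same strand, so how reads were divided between both genes is uncertain. Chkb itself had 538 counts in Proton75, 455 in Gamma100 and 286 to 403 in the other 18 mice. Both genes therefore had their highest counts in the same 2 mice.

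The transcriptional regulators differed among themselves. Ppara (mm9 chr15:85565413-85633249, plus strand), a nuclear receptor that drives genes of fatty acid oxidation, ranged from 6 in the gamma mouse at 50 cGy to 148 in Proton75 around a median of 17. Ppargc1a (mm9 chr5:51845488-51958964, minus strand), the coactivator of mitochondrial biogenesis, ranged from 15 in the gamma mouse at 10 cGy to 107 in Proton75 around a median of 27.5. Prdm16 (mm9 chr4:153690234-154010982, minus strand), a determination factor of brown fat that endothelium also uses, varied by 1.92-fold only, from 688 in Proton75 to 1322 in the proton mouse at 10 cGy. It was thus the gene whose lowest count lay where most of the others had their highest.

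Dio2 (mm9 chr12:91962994-91976878, minus strand), the deiodinase that turns thyroxine into active thyroid hormone, ranged from 299 in the proton mouse at 100 cGy to 824 in the proton mouse at 5 cGy, around a median of 471.5. Its standard deviation of 0.34 exceeded that of 68.0% of the genes tested, and that of Prdm16, 0.25, that of 52.1%. Neither gene had an unusual spread, and neither was highest in Proton75.

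Per kilobase of exon, the median count over the 20 mice was 356 for Cidea, 233 for Ucp1, 110 for Prdm16 and 81.1 for Dio2, and between 3.19 and 6.08 for Cpt1b, Ppara, Ppargc1a and Elovl3. The genes of the first group and of the second were thus separated by over an order of magnitude. Within the second group the medians, 6.08 for Cpt1b, 4.43 for Ppara, 4.14 for Ppargc1a and 3.19 for Elovl3, lay closer than the range of each gene over the mice.

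**Figure D1:**
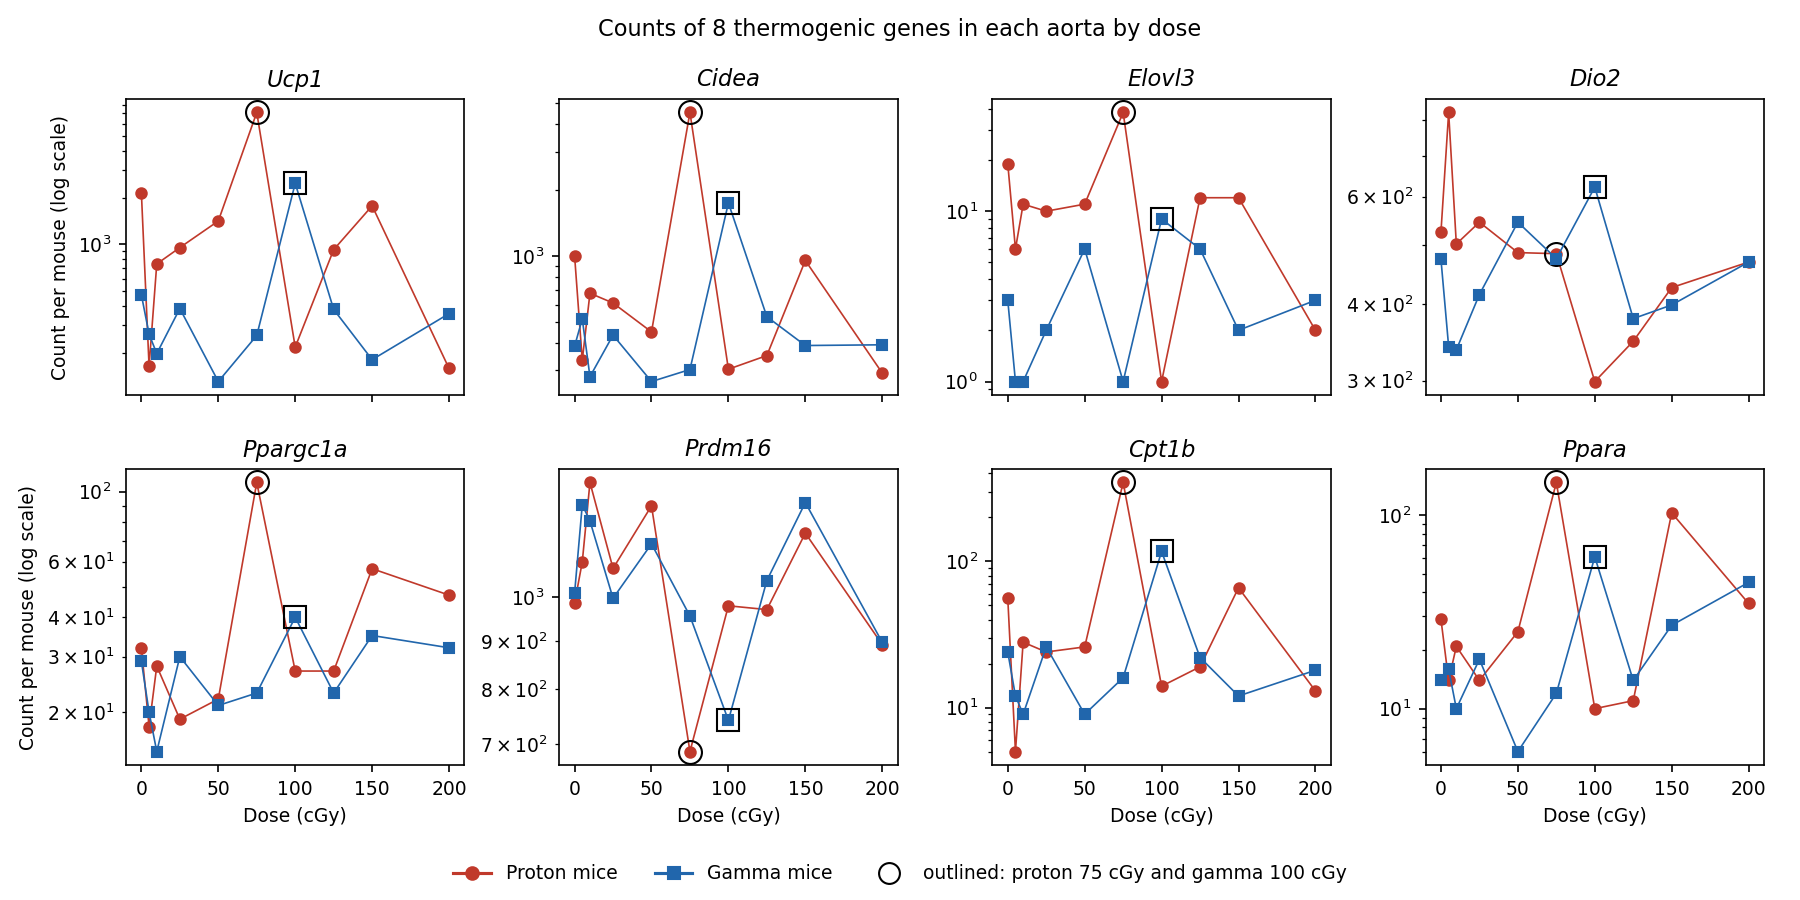
Counts of the 8 genes on log axes (different ranges) against dose in cGy, 1 point per mouse, with proton mice as red circles, gamma mice as blue squares, and Proton75 and Gamma100 outlined. The outlined points are the highest of their type in 6 panels for Proton75 and 7 for Gamma100, and the lowest in the panel of Prdm16.

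Proton75 had the highest count of the 20 mice for 6 of the 8 genes and Gamma100 had the highest count of the gamma mice for 7 of them. These mice were named with the counts known, so the numbers describe 2 animals and were not tested. Ucp1 was 7108 in Proton75, against 158 to 2150 with a median of 924 in the other 9 proton mice, a 7.69-fold difference from that median. Cidea was 4527 against 292 to 1004 (median 450), Cpt1b 347 against 5 to 66 (median 24) and Ppara 148 against 10 to 103 (median 21), which were 10.1-fold, 14.5-fold and 7.05-fold. Ppargc1a, at 107 against 18 to 57 (median 27), was 3.96-fold higher, and Elovl3, at 38 against 1 to 19 (median 11), 3.45-fold. Dio2 was at 484, beside a median of 486, and Prdm16 at 688 was below the lowest other proton mouse, 892. The high genes thus did not overlap with the other proton mice, and Dio2 lay in their middle.

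In Gamma100 the differences had the same order of size for most genes but not the same genes led. Ucp1 was 2478 in Gamma100, against 130 to 472 with a median of 263 in the other 9 gamma mice, 9.42-fold above that median. Cpt1b, at 117 against 9 to 26 (median 16), was 7.31-fold higher, Cidea, at 1748 against 267 to 528 (median 390), 4.48-fold, and Ppara, at 61 against 6 to 45 (median 14), 4.36-fold. Elovl3 had 9 counts (interval 4.12 to 17.1) against 1 to 6, which counting error does not separate. Ppargc1a at 40 against 15 to 35 and Dio2 at 622 against 337 to 545 were the highest gamma values by small margins. Prdm16, at 742 against 897 to 1259, was again the lowest.

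Many genes outside the 8 stood out in the same 2 mice. Proton75 was the highest of its type for 6 of the 8 genes and for 28.4% of the 13124 genes tested, and it was above all 18 other mice for 6 of 8 and for 25.6% of all. It was below all 18 others for 1 of 8, Prdm16, and for 16.7% of all genes, and at least 2-fold above the median of its type for 6 of 8 and for 13% of all. Gamma100 was the highest of its type for 7 of 8 and for 18.5% of all genes, above all 18 others for 3 of 8 (Ucp1, Cidea and Cpt1b) and for 12.6% of all. It was below all 18 others for 1 of 8, Prdm16 again, and for 4.9% of all, and at least 2-fold above the median of its type for 5 of 8 and for 7.06% of all. The shares of the 8 genes were above the background for the high values in both mice. Both mice were named for high counts of these genes, so this excess follows from that choice and was not tested. Scaling with TMM factors left the same numbers of the 8.

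Markers of fat moved with these high values, and in Proton75 markers of cardiac muscle did too. The 16 adipocyte markers summed to 94398 counts in Proton75 and 39854 in Gamma100, against 9957 to 24697 with a median of 14618.5 in the other 18 mice. Of the 16, 15 and 14 were above all 18 (25.6% and 12.6% of all genes). The top of the list by the ratio of highest to median count were Dgat2, an enzyme of triglyceride synthesis, with 9535 and 2866 in the 2 mice against 237 to 1671 in the others, and Lipe, hormone-sensitive lipase, with 4930 and 1355 against 168 to 904. Both mice were thus outside the range of the others for fat transcripts in general.

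The 10 cardiac muscle markers summed to 24059 in Proton75, against 489 in Gamma100 and 542 to 1276 in the other 18 mice. The atrial peptide Nppa had 2312 counts in Proton75, 0 in Gamma100 and 0 to 4 in the others, and sarcolipin (Sln) had 765, 0 and 0 to 14. Of the 10, 9 were above all 18 other mice in Proton75 (25.6% of all genes). In Gamma100 4 were at 0, Nppa, Sln and, named here after their values were seen, Myh6 and Myl7. Cpt1b, Ppara and Ppargc1a are also genes of heart muscle, so for these the Proton75 counts stand beside both marker lists, while in Gamma100 the fat list was high and the summed cardiac markers were below those of the 18 other mice. Their part in the Proton75 values was not tested.

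The sum of the smooth muscle markers was lower in both mice, and the other lists were less marked. The 10 smooth muscle markers had 9 members below all 18 other mice in Proton75 and 4 in Gamma100 (16.7% and 4.9% of all genes). Lmod1 had 4970 and 6931 against 6841 to 11719 and Myocd 110 and 290 against 144 to 903, so in Gamma100 both were within the range of the others. The 8 endothelial markers summed to 7925 and 6414 against 2373 to 8175. Of the 8, 4 were above all 18 other mice in Proton75 and 2 in Gamma100 (25.6% and 12.6% of all genes). By the ratio of highest to median count, Kdr, a receptor of vascular endothelial growth factor, led with 534 and 168 against 31 to 123. Cdh5 followed with 935 and 515 against 158 to 473. Pecam1 (2968 and 3096 against 1298 to 4294) and Vwf (1867 and 1526 against 311 to 2261) were among those within the range in both mice. The 10 skeletal muscle markers summed to 447 and 85 against 75 to 181, with Ckm, which the heart also uses, at 404 and 61 against 48 to 110, Acta1 at 11 and 6 against 0 to 30, and 3 and 5 markers at 0. The 2 lung markers in the table (7 and 6 against 2 to 11, Ager at 6 and 6 against 1 to 11), the 7 lymphoid markers (35 and 28 against 1 to 58) and the 6 markers of sympathetic neurons (26 and 11 against 2 to 26, Slc6a2 at 13 and 7 against 1 to 20) were within or at the edge of the range of the other mice. Proton75 thus differed from Gamma100 in the cardiac list, and both differed from the rest in the sums of the fat and smooth muscle lists.

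**Figure D2:**
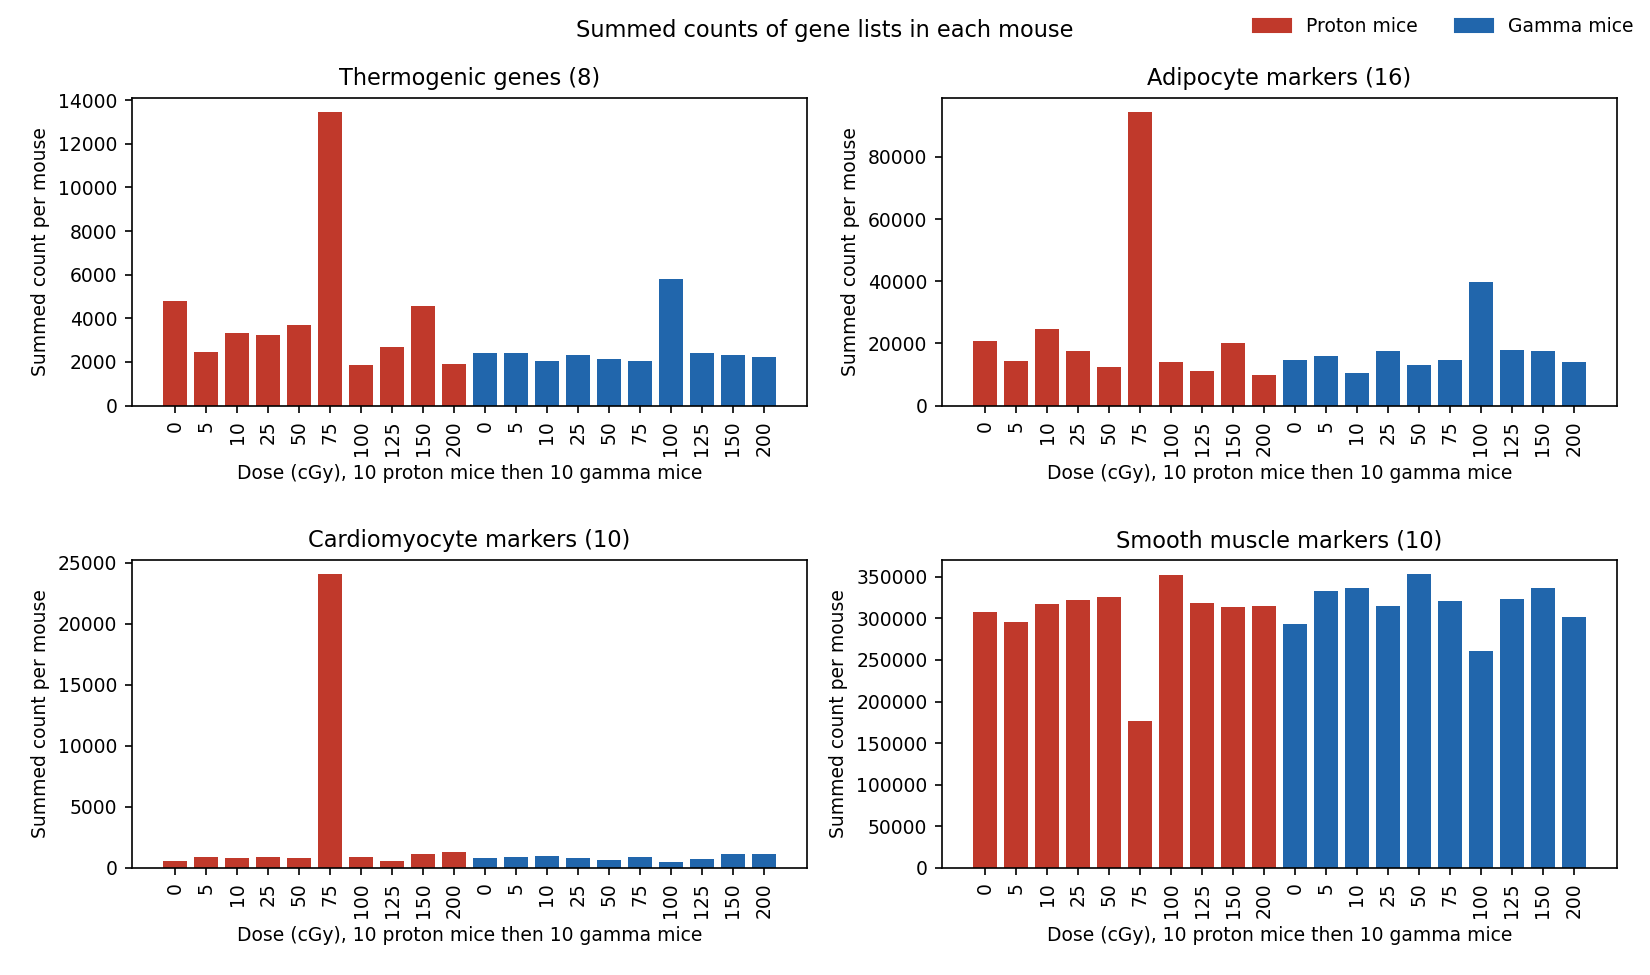
Summed counts (linear axes from 0) of the 8 thermogenic genes and of the adipocyte, cardiomyocyte and smooth muscle markers in each mouse, 1 bar per mouse in order of dose, proton mice in red and gamma mice in blue. Proton75 and Gamma100 have the tallest bars of thermogenic genes, 13447 and 5817, and of adipocyte markers, and only Proton75 is raised for cardiomyocyte markers.

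Set against the fat markers of the same mouse, 4 of the 8 genes (Ucp1, Cidea, Elovl3 and Ppara) were within the range of the other 18 mice in both Proton75 and Gamma100. Per 1000 counts of adipocyte markers, Ucp1 was at 75.3 in Proton75 and 62.2 in Gamma100, within the 9.97 to 114 of the other 18 mice (median 21.7), and 4 of the 18 lay above each. Cidea was at 48.0 and 43.9, near the upper end of 20.5 to 48.2. Cpt1b, at 3.68 in Proton75, was above the 0.345 to 3.30 of the others, and at 2.94 in Gamma100 was within them. Ppara, at 1.57 and 1.53, lay within 0.460 to 5.15, and the highest value was that of the proton mouse at 150 cGy. Ppargc1a, at 1.13 in Proton75, was within the 1.09 to 4.72 of the others, and at 1.004 in Gamma100 was below them. On this scale Cpt1b in Proton75 was the one high value beyond the range of the others. The marker sum includes Plin4, which was within the range of the others in both mice (4856 and 4360 counts against 3607 to 5869). Plin4 was thus a smaller part of the sum in Proton75 and Gamma100, which raises their ratios relative to the others. Ratios without Plin4 were not computed, so the place of Cpt1b depends on this choice of markers.

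Prdm16 and Dio2 took the opposite place on this scale. Prdm16 was at 7.29 and 18.6 per 1000 adipocyte marker counts in Proton75 and Gamma100, below the 47.3 to 114 of the others, and Dio2 at 5.13 and 15.6 was below 20.3 to 56.9. Both genes thus did not scale with the fat markers over these aortas.

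**Figure D3:**
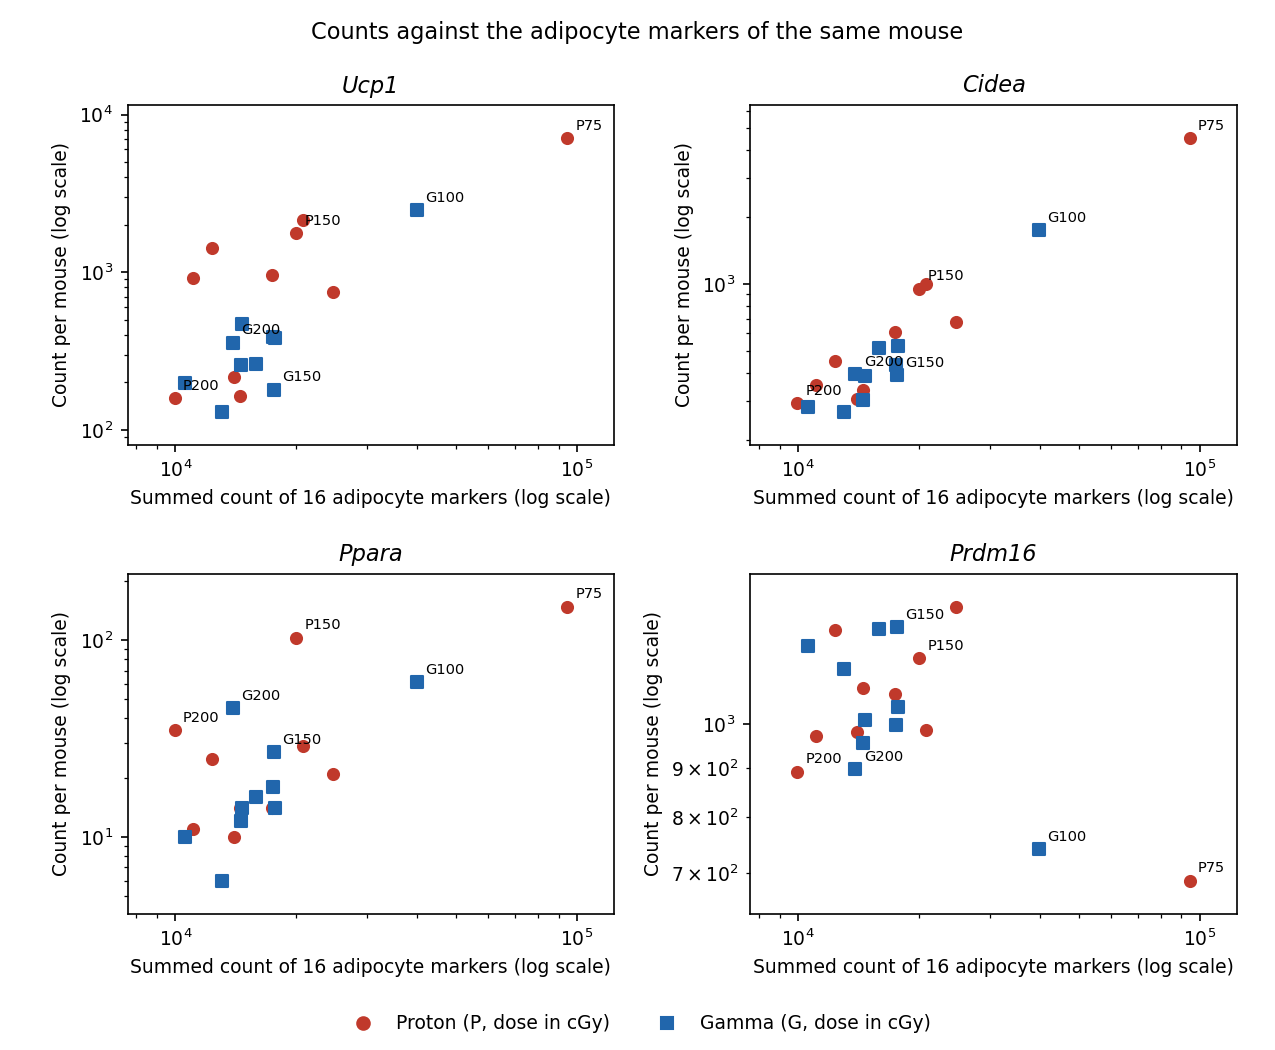
Counts of Ucp1, Cidea, Ppara and Prdm16 against the summed count of 16 adipocyte markers of the same mouse on log axes, 1 point per mouse (proton red circles, gamma blue squares), with the 2 mice and those at 150 and 200 cGy labelled. Cidea follows the markers most closely, Ucp1 differs up to about an order of magnitude between mice with like markers, and Prdm16 is lowest in the 2 mice with the most marker counts.

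Across mice, Ucp1, Cidea and Cpt1b varied together. Over the 20 mice Pearson's r of log2(CPM + 1), counts scaled to a common library size, was 0.88 between Ucp1 and Cidea, 0.92 between Ucp1 and Cpt1b and 0.95 between Cidea and Cpt1b, and over the 18 mice it was 0.81, 0.89 and 0.85. Ppargc1a and Ppara formed another pair, with r of 0.88 over 20 and 0.80 over 18 mice. Ppargc1a and Ucp1 had r of 0.61 over 20 mice and 0.28 over the 18, so this relation was mostly one of the 2 mice. Dio2 had r between 0.05 and 0.36 with every gene but Prdm16 over the 20 mice. These values are descriptions: all counts of a mouse come from 1 library and share its tissue content.

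The genes outside the 8 were ranked by the likeness of their profile to the mean profile of the 8. Over the 20 mice the 10 nearest were Plbd1 (Pearson's r 0.95), Hadhb (0.95), Cxadr (0.94), Prkar2b, Acaa2, Slc25a20, Gpd2, Aspa, Mcart1 and Acadvl (0.93). Over the 18 mice they were Hadhb (0.95), Sdhd (0.95), Cox6b1, Hadha, Acadvl, Mcart1, Plbd1, Cox5a, Idh3a and Decr1 (0.93). Of the first 10, 4 are on the list of fatty acid oxidation genes and 1 on the adrenergic and lipolysis list, and of the second 10, 4 on the former. As background, Hadha, Hadhb, Acaa2, Acadvl and Decr1 are enzymes of fatty acid oxidation, and Sdhd, Cox6b1 and Cox5a are subunits of the respiratory chain.

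Whether the genes changed with dose was the question the study was built for. The log2 slope of a gene on dose, given per 100 cGy, was tested with edgeR's quasi-likelihood test with a separate line for each radiation type, and called at a Benjamini-Hochberg adjusted p of 0.1 over all genes tested. With all 20 mice, 0 of the 8 genes were called after proton radiation, where 1.76% of all genes were, and 0 of 8 after gamma radiation, where 7.65% of all were. At an unadjusted p under 0.05 there was 1 of 8 for protons, Dio2, where 13.3% of all genes had one, and 0 of 8 for gamma rays, where 18.4% did. The 8 genes were thus at or below the background. DESeq2 also called 0 of 8 for both, though it gave Elovl3 no adjusted p for gamma rays. No dose response of the 8 genes was therefore detected in the full series.

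The errors of these slopes were wide for the genes that the 2 mice carry. After protons, Ucp1 had a slope of -0.33 (SE 1.01, edgeR adjusted p = 0.954) and Cpt1b of 0.04 (SE 0.98). After gamma rays, Ucp1 had a slope of 0.52 (SE 0.91, edgeR adjusted p = 0.860) and Cpt1b of 0.43 (SE 0.91). With errors of this size, a doubling per 100 cGy could not have been told from no change. Prdm16 had narrow errors, with a slope of -0.12 in both types (SE 0.12 in each). Dio2 after protons, at -0.31 (SE 0.14, unadjusted p = 0.0426, edgeR adjusted p = 0.355), and Ppara after gamma rays, at 0.90 (SE 0.54, edgeR adjusted p = 0.428), were among the largest relative to their error. The median slope of the 8 genes was -0.18 after protons and 0.38 after gamma rays, beside 0.00 and 0.01 over all genes. These medians rested on single mice: without Gamma100 the gamma median was 0.05, without the gamma mouse at 200 cGy it was 0.78, and without the proton mouse at 200 cGy the proton median was 0.48.

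The same question was then asked without the 2 mice. They were left out for their high counts of these genes, so smaller errors for the genes high in them follow from that choice. P-values of the fits of 18 mice are therefore descriptive and can be too small. With the 18 others, the error of the Ucp1 slope fell from 1.01 to 0.53 after protons and from 0.91 to 0.52 after gamma rays, and Ucp1 had slopes of -0.37 and -0.03. For Cidea the slopes were -0.28 (SE 0.27) and 0.04 (SE 0.27), for Cpt1b 0.00 (SE 0.38) and 0.00 (SE 0.43), and for Elovl3 -0.58 (SE 0.39) and 0.35 (SE 0.55). No trend with dose was detected for these 4 in either type, and the sign of the Ucp1 gamma slope depended on Gamma100. For Dio2 the proton slope stayed at -0.32 (SE 0.14, unadjusted p = 0.0351, edgeR adjusted p = 0.236), and for Prdm16 the slopes were -0.12 (SE 0.08) and -0.10 (SE 0.08).

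Of the 8 genes, 1 was called in the 18 mice. Ppargc1a rose with proton dose by 0.56 log2 units per 100 cGy (SE 0.17, edgeR adjusted p = 0.0803), in a fit that called 5.7% of all genes, 4.3% as rising. With 8 genes, 1 call is close to that background. Proton75, at 107 counts of Ppargc1a, had been left out for its high values, so the p-value is descriptive. After gamma rays 0 of 8 were called, where 14% of all genes were, and Ppargc1a had a slope of 0.25 (SE 0.18, edgeR adjusted p = 0.438). Ppara had slopes of 0.80 in both types (SE 0.36 and 0.38), with unadjusted p of 0.0369 and 0.0480 and edgeR adjusted p of 0.242 and 0.209, and so did not pass. When each of the 18 mice was left out in turn, its proton slope was as low as 0.18, without the proton mouse at 150 cGy, and its gamma slope as low as 0.43, without the gamma mouse at 200 cGy.

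The counts behind this slope lay at the highest doses. Ppargc1a had 57 and 47 counts in the proton mice at 150 and 200 cGy and 35 and 32 in the gamma mice at those doses, against 15 to 32 (median 23) in the 14 mice at 0 to 125 cGy other than Proton75 (107) and Gamma100 (40). Ppara had 103 and 35 counts in the proton mice at 150 and 200 cGy and 27 and 45 in the gamma mice, against 6 to 29 (median 14) in the same 14 mice, 148 in Proton75 and 61 in Gamma100. For each gene, 1 of the 14 mice reached the lowest of the 4 high-dose values, and the 6 other genes overlapped more. Counting error is large at these levels: 57 counts had an interval of 43.2 to 73.9 and 32 counts one of 21.9 to 45.2.

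The Ppargc1a call was not stable. In the 18 mice Ppargc1a was also called for protons by DESeq2 (DESeq2 adjusted p = 0.0668) and without TMM (edgeR adjusted p = 0.0867), but other fits lost the call. When each of the 18 mice was left out in turn, its proton slope stayed between 0.41 and 0.70 and was called in 13 of 18 fits. Calls were lost without the proton mouse at 200 cGy (edgeR adjusted p = 0.463), at 150 cGy (0.279), at 25 cGy (0.136), at 5 cGy (0.135) or at 50 cGy (0.113). At doses up to 125 cGy the slope was 0.08 (SE 0.28, edgeR adjusted p = 0.976). With a correction for GC content and length in each library, it was 0.42 (SE 0.15, edgeR adjusted p = 0.232). The longest protein-coding transcript of Ppargc1a is 41.7% GC. The 4 mice at 150 and 200 cGy are those whose counts deviated with GC content, so this deviation and high dose cannot be told apart.

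**Figure D4:**
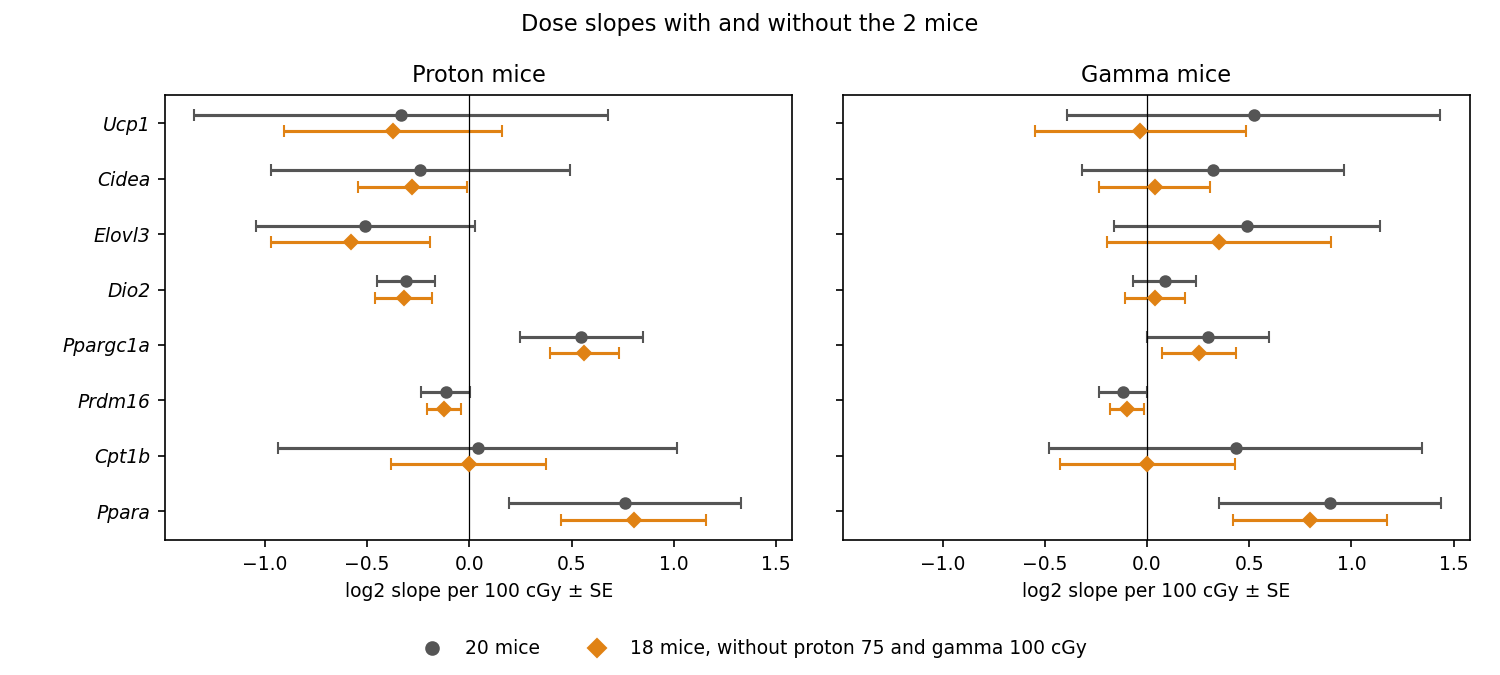
Log2 slopes per 100 cGy with standard errors of the 8 genes after proton radiation (left) and gamma radiation (right), for 20 mice (grey circles) and for the 18 without Proton75 and Gamma100 (orange diamonds). Errors of Ucp1, Cidea and Cpt1b shrink without the 2 mice and none of their slopes is called, and Ppargc1a after protons lies 0.56 above 0 with an SE of 0.17.

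Fat content was also entered as a covariate, as the mean log2(CPM + 1) of the adipocyte markers in each of the 20 mice. In that fit Ppargc1a rose with proton dose by 0.84 (SE 0.14, edgeR adjusted p = 0.00251) and Ppara by 1.16 (SE 0.28, edgeR adjusted p = 0.0543), and Ppara rose with gamma dose by 0.84 (SE 0.29, edgeR adjusted p = 0.0842). This fit called 3.82% of all genes for protons and 12.8% for gamma rays. The 1 of 8 for gamma rays is at that background, and the 2 of 8 for protons are above it. Ucp1 and Cidea had proton slopes of 0.14 (SE 0.49) and 0.19 (SE 0.14) and were not called. The covariate is itself made of counts of the same libraries, and Proton75 keeps its cardiac markers in this fit, whose part was not tested. The 4 mice at 150 and 200 cGy also deviated with GC content, so these calls cannot tell that deviation from high dose. The covariate fit was not run at 0 to 125 cGy or with the GC correction. Without the covariate, 18-mouse proton slopes at 0 to 125 cGy were 0.08 (SE 0.28) for Ppargc1a and -0.83 (SE 0.40) for Ppara. With the GC correction they were 0.42 (SE 0.15) and 0.83 (SE 0.36).

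A rank test made no assumption on the shape of the response. In the exact one-sided permutation test of Spearman's rho between count and dose, 0 of 8 genes were called after protons (0.198% of all genes) and 0 of 8 after gamma rays (2.32% of all). An unadjusted p under 0.05 was found for 1 of 8 in each type, Dio2 for protons and Ppargc1a for gamma rays, and for 12.6% and 23.4% of all genes, so the 8 were not above the background. Dio2 had a rho of -0.82 over the 10 proton mice (exact permutation p = 0.00291, adjusted p = 0.833), with its highest count at 5 cGy and its lowest at 100 cGy. Without Proton75 its rho was -0.75 (exact permutation p = 0.0127, adjusted p = 0.597). Ppargc1a had a rho of 0.58 over the 10 gamma mice (exact permutation p = 0.0425, adjusted p = 0.321). Neither passed the correction over all genes.

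Proton and gamma mice were also compared directly. The slopes differed between the radiation types for 0 of 8 genes, and for 0 (0%) of all genes in edgeR, in which 254 genes had an unadjusted p under 0.05, none of the 8 among them. DESeq2 also called 0 genes. Matched by dose, with the dose as a block, 0 of 8 genes and 0 (0%) of all genes differed in edgeR, with 1032 genes at an unadjusted p under 0.05 and Elovl3 alone of the 8 among them, while DESeq2 called 70 genes, none of them of the 5 members to which it gave an adjusted p. It gave none to Elovl3, Ppargc1a and Ppara.

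Elovl3 was the gene with the largest difference by type. It had 1 to 38 counts (median 11) in the proton mice and 1 to 9 (median 2.5) in the gamma mice and was higher in the proton mouse at 8 of 10 doses, by 1.64 log2 units (SE 0.55, unadjusted p = 0.0114, edgeR adjusted p = 0.444). Without the pairs at 75 and 100 cGy the difference was 1.71 (SE 0.37, edgeR adjusted p = 0.0749), and this was 1 of 8 genes called where 0.822% of all were. These pairs hold the 2 mice named for their counts of these genes, so this call is a description and not a test. In the proton and gamma mouse Elovl3 had 38 and 1 counts at 75 cGy, and 1 and 9 at 100 cGy. Ucp1 was higher in the proton mouse at 7 of 10 doses, by 1.43 (SE 0.79, edgeR adjusted p = 0.707). Both differences were there in the sham-irradiated mice: at 0 cGy Elovl3 had 19 counts in the proton and 3 in the gamma mouse, and Ucp1 2150 and 472.

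Other genes of the thermogenic programme behaved like Ucp1 and Cidea in the 2 mice and unlike them in the dose fits in part. Of 26 further brown fat genes in the table, 22 were tested. Of these, 20 were above all 18 other mice in Proton75, where 25.6% of all genes were, and 15 in Gamma100, where 12.6% were. Cardiac markers were also high in Proton75, and their part in these counts was not tested. Esrrg, an orphan nuclear receptor of oxidative tissues, had 83 and 15 counts in the 2 mice against 1 to 13 in the others, and Mpzl2 had 309 and 48 against 5 to 69. In the 20-mouse fits 0 of 22 were called for either type. In the 18 mice 3 of 22 fell with proton dose, where 182 of 13022 genes did, and they are named here after their values were seen. They were Ucp3, a relative of Ucp1, with a slope of -1.30 log2 units (SE 0.26, edgeR adjusted p = 0.0191), the proton channel Otop1 with one of -1.03 (SE 0.31, edgeR adjusted p = 0.0859) and Mpzl2 with one of -1.02 (SE 0.30, edgeR adjusted p = 0.0785). Ucp3 also fell with gamma dose, with a slope of -0.86 (SE 0.31, edgeR adjusted p = 0.0930), in a fit where 711 of 13022 genes fell. All 3 genes had their highest count in Proton75, which was left out, so these p-values are descriptive. With 20 mice the proton slopes of Ucp3, Otop1 and Mpzl2 had edgeR adjusted p of 0.738, 0.798 and 0.790.

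Ucp3 had 8 to 138 counts in the other 18 mice, with 681 in Proton75 and 126 in Gamma100. Ucp2, the other relative, had 375 and 252 counts in the 2 mice and 45 to 205 in the others. Ucp1 and Ucp2 were thus above all 18 others in both mice, and Ucp3 in Proton75 but not in Gamma100.

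In the adrenergic and lipolysis list, 12 of 14 genes were above all 18 other mice in Proton75 and 10 in Gamma100 (25.6% and 12.6% of all genes). Lipe, given above, and Prkar2b, a regulatory subunit of protein kinase A, with 3366 and 1059 counts against 107 to 537, had the largest ratios of highest to median count. Atf2, a transcription factor downstream of this kinase in brown fat, was the 1 gene of the list called in the 20 mice. It rose with gamma dose by 0.13 (SE 0.04, edgeR adjusted p = 0.0981), and in the 18 mice it was not called (0.107). With 14 genes, 1 call is close to the background of 7.65%. In the 18 mice Prkaca, the catalytic subunit, fell with dose in both types, with slopes of -0.26 after protons (SE 0.06, edgeR adjusted p = 0.0378) and -0.31 after gamma rays (SE 0.06, edgeR adjusted p = 0.00911). It is named here after its values were seen, and in these fits 182 (protons) and 711 (gamma rays) of 13022 genes fell. Prkaca was higher in the 2 mice left out, at 1302 and 864 counts, than in the others, at 458 to 790, so these p-values are descriptive. With 20 mice it was not called for protons (edgeR adjusted p = 0.522) or gamma rays (edgeR adjusted p = 0.375).

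Of 16 genes of fatty acid oxidation, 15 were above all 18 other mice in both Proton75 and Gamma100, where 25.6% and 12.6% of all genes were. The exception, named after its values were seen, was Cpt1a, the liver form of Cpt1b, which was below all 18 in both. The part of cardiac tissue in the Proton75 counts was not tested. Acaa2 had 5524 and 2001 counts in the 2 mice against 351 to 1267, and Hadhb 6792 and 2512 against 598 to 1664. None of the 16 was called for dose by edgeR in 20 or 18 mice, and 0 of 16 in 20 mice and 2 for protons and 0 for gamma rays in 18 mice had an unadjusted p under 0.05. The adipocyte list had 0 of 16 called in 20 mice. In 18 mice 2 of 16, named here after their values were seen, fell with proton dose, where 182 of 13022 genes did. They were Agpat2 with a slope of -0.97 (SE 0.21, edgeR adjusted p = 0.0264) and Slc2a4 with one of -0.49 (SE 0.11, edgeR adjusted p = 0.0228). Both had their highest count in Proton75, which was left out, so these p-values are descriptive. The median slope of the adipocyte list in 18 mice was -0.48 after protons and 0.02 after gamma rays, beside -0.0066 and -0.0050 over all genes.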

How the data were processed

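Aortas of 20 mice were sequenced from stranded, polyA-selected libraries. The authors called bases with CASAVA 1.8.1 (per the labels), aligned reads of 100 bases to mm9 with STAR 2.5.2a, resampled the libraries to one depth with PORT, and deposited whole-number sense-strand counts per gene. Reads shared by overlapping genes cannot be recovered from these counts, and resampling removes differences in depth but not in tissue content. Coordinates are from GENCODE M1 on the same assembly. Promoter stretches are from RefSeq, where 5 of the 8 genes had an entry.

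Slopes were fitted in edgeR 4.0.16 (TMM, robust quasi-likelihood, mean count of at least 5, R 4.3.3), with DESeq2 1.42.0 as an alternative. Rank trends were tested exactly over all orders of the doses in Python 3.11.15. The tests were tried on simulated data with known changes. The dose block pairs the mice of 1 dose.

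The 8 genes, the other lists and the 2 mice were chosen with earlier results of these data known. Genes outside the 8 were named by a rule: from each list those called for dose in 20 mice and the 2 with the largest ratio of highest to median count, the 10 closest in profile, relatives of Ucp1, and overlapping genes. Genes named outside this rule are marked as named after their values were seen. The lists were other brown fat genes, adrenergic and lipolysis genes, fatty acid oxidation, and markers of adipocytes, smooth muscle, endothelium, skeletal muscle, cardiac muscle, lung, lymphoid cells and sympathetic neurons. Alternatives covered scaling, filters, dose scale and range, GC content and length, a fat covariate and leaving out mice.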

Additional observations from a re-analysis of the deposited data

Results flagged for a closer look

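In 9 of 16 groups of 10 mice (8 genes in 2 radiation types), 1 mouse lay apart from the other 9 by Dixon's criterion. Chance alone meets it in about 1 of 20 independent groups only where values are normally distributed, and these are untransformed counts. The share of all genes that meet it was not computed, so the 9 groups have no background. Of the 9, 8 hold the values for which Proton75 and Gamma100 were named, so for these it is a description and not a test. For Ucp1 these were the 7108 counts of Proton75 and the 2478 of Gamma100. For Cidea they were 4527 in Proton75 and 1748 in Gamma100, and for Cpt1b 347 in Proton75 and 117 in Gamma100. Proton75 alone was apart for Elovl3, at 38 counts, and for Ppargc1a, at 107. The high values of 8 of these 9 groups came from the 2 mice with the highest summed adipocyte markers. The exception was Dio2, at 824 counts in the proton mouse at 5 cGy, whose next highest proton value was 545. The part of fat or cardiac tissue in these values was not tested.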

How the results depend on the processing

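Each dose of a radiation type rests on 1 mouse, and low counts of Elovl3, Ppara and Ppargc1a limit what can be seen. The number of the 8 genes called for proton dose moved from 0 to 2 with the adipocyte covariate and to 1 without the 2 mice, and for gamma dose from 0 to 1 with the covariate, in a fit that called 3.82% of all genes for protons and 12.8% for gamma rays. In the 18 mice the proton count moved from 1 to 0 at an adjusted p of 0.05, at 0 to 125 cGy, and with the GC and length correction (added after seeing the data), and ranged from 0 to 1 for both types when a further mouse was left out (also added after seeing the data): the gamma call was Ppara without the proton mouse at 150 cGy. At matched dose it moved from 0 to 1 without the pairs at 75 and 100 cGy, which hold the 2 mice named for their counts. The cause was not tested. Leaving out any 1 mouse or pair of the 20 gave 0.

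Slopes that changed sign were never called. For protons these were Ucp1 0.034 and Cidea 0.058 on log2(dose + 1), Ucp1 0.84, Cidea 0.77 and Elovl3 0.073 at 0 to 125 cGy, Ucp1 0.14 and Cidea 0.19 with the covariate, and Cpt1b -0.0036 without the 2 mice. For gamma rays they were Dio2 -0.052 with the GC correction and Ucp1 -0.033 without the 2 mice. In the 18 mice they were Ppara -0.83 (protons), Ppargc1a -0.032 and Ppara -0.15 (gamma rays) at 0 to 125 cGy, Cpt1b 0.045 without all 4 mice at 75 and 100 cGy, and Cpt1b 0.070 (protons) and Dio2 -0.11 (gamma rays) with the GC correction. Slope differences changed sign for Prdm16 (-0.022 without TMM and -0.025 without the 2 mice) and Ppara (0.0066 without the 2 mice). Under further settings, added for this difference after seeing the data, they did so with the covariate (Ucp1 0.084, Cidea 0.15, Prdm16 -0.11, Cpt1b 0.55, Ppara 0.32), on log2(dose + 1) (Cpt1b 0.0029, Ppara 0.0026) and at a mean count of at least 50 (Prdm16 -0.0043). With 1 mouse left out of 20, proton slopes ranged over -0.78 to 0.54 for Ucp1, -0.55 to 0.42 for Cidea and -0.40 to 0.94 for Cpt1b, and the gamma slope of Ucp1 over -0.020 to 1.05. In the 18 mice they ranged over -1.10 to 0.11 (Ucp1) and -0.64 to 0.40 (Cpt1b) for protons, and -0.27 to 0.16 (Ucp1), -0.035 to 0.16 (Cidea), -0.013 to 0.081 (Dio2) and -0.10 to 0.16 (Cpt1b) for gamma rays. With 1 pair left out, slope differences ranged over -0.039 to 0.030 (Prdm16), -0.75 to 0.16 (Cpt1b) and -0.61 to 0.36 (Ppara), and matched differences over -0.024 to 0.22 (Dio2) and -0.081 to 0.021 (Prdm16).

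Over all genes, the counts depended strongly on the high doses: 210 genes rose and 21 fell after protons, against 13 and 1 at 0 to 125 cGy and 22 and 0 on log2(dose + 1), and 714 and 290 after gamma rays, against 29 and 5 and 38 and 7. DESeq2 called 70 genes at matched dose and edgeR 0. Without the 2 mice, 560 rose and 182 fell after protons and 1113 and 711 after gamma rays.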
